A study of Mus musculus with 24 samples.

Results

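The genes described here are 10 genes of simple epithelia. They comprise 4 keratins (Krt7, Krt8, Krt18 and Krt19), the adhesion molecules Epcam and Cdh1, 3 claudins (Cldn3, Cldn4 and Cldn7) and the tetraspanin Tspan8. They were measured in the mouse uterus with and without progesterone (P4) and with and without the progesterone receptor. A probe set, the group of short probes that reads 1 transcript on the array, was taken when the platform annotation named 1 of these genes and no other gene. This gave 13 probe sets of the 12422 tested, for 10 of the 8251 genes that the array names. Krt18, Krt19 and Cldn3 each had a brighter and a dimmer probe set, and the other 7 genes had 1 each.

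Keratins are the intermediate filament proteins of epithelial cells, where a type II keratin (Krt7, Krt8) pairs with a type I keratin (Krt18, Krt19). Claudins are the membrane proteins that form tight junctions, Cdh1 (E-cadherin) holds the adherens junctions, and Epcam is a homophilic adhesion molecule that binds claudins, Cldn7 among them. Tspan8 is a membrane organiser of the tetraspanin family found on many glandular epithelia. In the uterus these genes mark the luminal and glandular epithelium, whose junctions are remodelled when progesterone prepares the tissue for implantation, while the bulk of the organ is stroma and smooth muscle. The arrays read whole uteri, so fewer epithelial cells and less RNA per epithelial cell cannot be told apart.

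Progesterone receptor knockout (PRKO) and wild-type mice lost their ovaries at 6 weeks of age, and treatment began 2 weeks later. Each mouse received 1 mg of P4 in sesame oil, or sesame oil alone as vehicle, by injections spaced 12 h apart, and uteri were collected 4 h after injection 1 (the 4 h time) or injection 4 (the 40 h time). The 8 groups were PRKO with P4, PRKO with vehicle, wild type with P4 and wild type with vehicle, at 4 h and at 40 h, with 3 arrays each. Each pool of RNA came from 5 mice of 1 genotype and treatment. Nothing in the labels tells if a group's 3 arrays carry separate pools, so p-values measure the spread between arrays, which may be technical. All mice, controls included, were without ovarian steroids of their own.

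Signals are on the linear scale of the array software, set to a trimmed mean of 500 on each array. Fold changes are log2 differences of signal plus an offset of 32, given ± SE from a limma fit to all 24 arrays, and a gene passed when its Benjamini-Hochberg adjusted p over all probe sets was under 0.05. Signals of different probe sets differ in probe efficiency and are not set against each other. The number of arrays limits the precision: the median SE of a comparison of 3 with 3 arrays was 0.10. The library labels were checked on Pgr, the targeted gene, whose probe set was dim (percentile 22.4 of the mean signals). Pgr averaged 115 to 129 in the 4 PRKO groups and 121 to 157 in the 4 wild-type groups, and differed by −0.17 ± 0.04 over the 4 combinations of treatment and time (limma, adjusted p = 0.0217). The position of that probe set relative to the deleted part was not known, so it is no firm check of genotype. The ratio of the 3′ to the 5′ Gapdh control, a sign of RNA degradation, was 3.25 and 3.67 on replicate 2 of wild type with P4 and of wild type with vehicle at 4 h, and between 1.23 and 1.86 on the other 22 arrays.

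P4 lowered 2 of the 10 genes in wild-type uteri. Tspan8 was 1.94-fold lower with P4 at 4 h and 1.90-fold lower at 40 h, and Krt7 was 1.57-fold lower at 40 h. No member passed as higher. At 4 h, 1 of 13 member probe sets passed, lower, where 0.708% of all probe sets passed, and at 40 h 2 of 13 passed, both lower, against 1.54%. The median member change was −0.16 at 4 h and −0.11 at 40 h, while the median of all probe sets was 0.00 at both times. The 3 P4 arrays were all lower than the 3 vehicle arrays for 5 member probe sets at 4 h (3.01% of all probe sets) and for 6 at 40 h (10% of all probe sets). They were all higher for 1 member at each time, the brighter Cldn3 probe set at 4 h (3.65% of all probe sets) and the dimmer one at 40 h (9.76%). Member changes in wild type were below 0 for 10 of 13 probe sets at 4 h and 7 of 13 at 40 h. In PRKO uteri 0 of 13 passed at 4 h and 0 of 13 at 40 h. The median member change in PRKO was −0.18 at 4 h, with 11 of 13 below 0, as low as in wild type. At 40 h it was 0.05, with 4 of 13 below 0. The median of all probe sets in PRKO was −0.004 at 4 h and −0.04 at 40 h. There limma passed 0% of all probe sets at either time, with 236 probe sets at 4 h and 831 at 40 h, and none of the members, at an unadjusted p under 0.05.

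**Figure D1:**
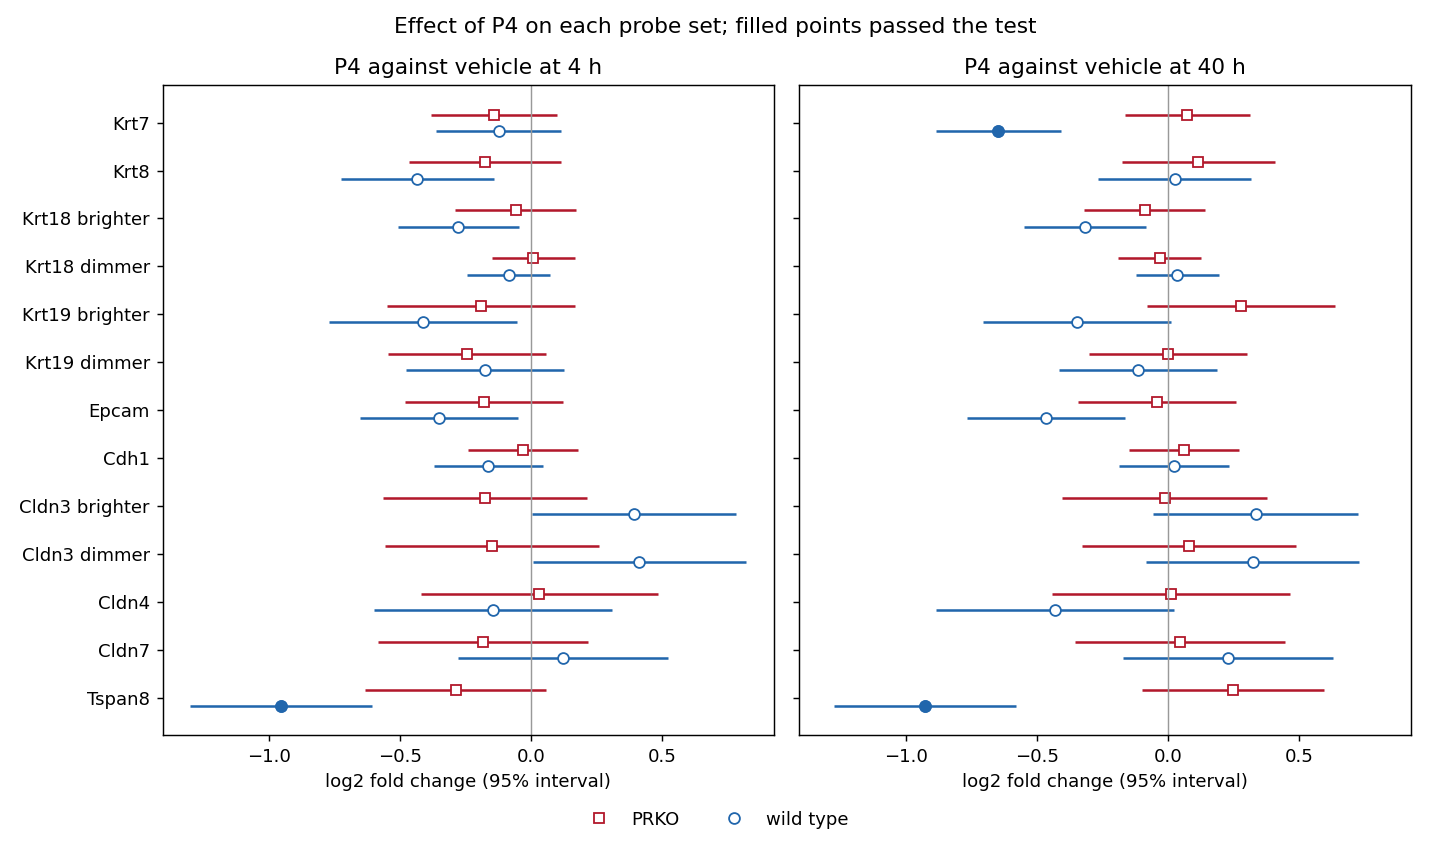
Log2 fold change of P4 against vehicle (x axis, with its 95% interval) for each of the 13 probe sets (y axis) at 4 h and at 40 h. Red squares are PRKO and blue circles wild type, and filled points passed the limma test. The filled points are wild-type Tspan8 at both times and wild-type Krt7 at 40 h.

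Tspan8 carried the clearest response. At 4 h its signal was 258, 238 and 232 on the wild-type P4 arrays, against 539.8, 467 and 495 on the wild-type vehicle arrays. At 40 h it was 187, 194 and 223 with P4, against 311, 423 and 526 with vehicle. At each time every P4 array lay below every vehicle array, with no overlap. The fold change was −0.95 ± 0.17 at 4 h (limma, adjusted p = 0.0044) and −0.93 ± 0.17 at 40 h (adjusted p = 0.00384), and the 2 times did not differ detectably (40 h minus 4 h 0.03 ± 0.24, adjusted p = 1). The 4 h call was lost without the 2 arrays of high Gapdh ratio, where the change was as large, −0.99 ± 0.21, with adjusted p = 0.0655, in a fit that passed 29 probe sets of all against 88. In the order of the 8 group means, wild type with P4 at 40 h (202 ± 19.1, SD, n = 3) and at 4 h (243 ± 13.8) were lowest, and each lay below the next by more than the larger SD of the pair. The highest was PRKO with vehicle at 4 h (559 ± 40.8).

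In PRKO uteri Tspan8 did not pass for P4 at either time. At 4 h the PRKO arrays read 499.9, 464 and 396 with P4, against 598, 516 and 562 with vehicle. At 40 h they read 297, 545 and 425 with P4, against 285, 357 and 386 with vehicle. The P4 arrays were all lower at 4 h, as for 2.69% of all probe sets, and overlapped the vehicle arrays at 40 h. The changes were −0.29 ± 0.17 (adjusted p = 1) and 0.25 ± 0.17 (adjusted p = 0.703). The P4 effect in PRKO minus that in wild type was 0.67 ± 0.24 at 4 h (adjusted p = 0.85) and 1.18 ± 0.24 at 40 h (adjusted p = 0.0541), so neither time passed alone. At 4 h 0 of 13 members and 0.0966% of all probe sets passed this difference, and at 40 h 0 of 13 and 0.105%. An unadjusted p under 0.05 was found for 2 of 13 members at 4 h and 3 at 40 h, where 3.49% and 9.1% of all probe sets had one.

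The mean over both times, added after the values were seen, gives each gene 6 P4 and 6 vehicle arrays per genotype. In wild type, 2 of 13 members passed, both lower, against 1.31% of all probe sets: Tspan8 at −0.94 ± 0.12 (adjusted p = 9.62e-05) and Krt7 at −0.39 ± 0.08 (adjusted p = 0.0155). For Tspan8 and the brighter Krt19 probe set, the 6 P4 arrays were all below the 6 vehicle arrays, which is 2 of 13 where 0.233% of all probe sets did so. In PRKO 0 of 13 passed, as did 0% of all probe sets, of which 572 had an unadjusted p under 0.05. The effect in PRKO minus that in wild type passed for 1 of 13, Tspan8 at 0.92 ± 0.17 (adjusted p = 0.0207), against 0.225% of all. With an adipose score, the mean log2 signal of 8 adipose marker genes, as a covariate, this difference was 0.82 ± 0.21 and did not pass (adjusted p = 0.444), in a fit that passed 2 probe sets of all, against 28 without the covariate. These comparisons reuse the arrays of the separate times.

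Krt7, a type II keratin of ductal and glandular epithelium, passed for P4 at 40 h and not at 4 h, and the difference between the times did not pass. At 40 h its signal was 226, 201 and 239 on the wild-type P4 arrays, against 306, 387 and 409 on the vehicle arrays. At 4 h it was 391, 399 and 325 with P4, against 465, 429 and 336 with vehicle. The groups were apart at 40 h and overlapped at 4 h. The change was −0.65 ± 0.12 at 40 h (adjusted p = 0.00381) and −0.12 ± 0.12 at 4 h (adjusted p = 0.983). The 40 h effect minus the 4 h effect was −0.52 ± 0.16 (adjusted p = 0.259), and for this difference in time 0 of 13 members passed against 0.475% of all probe sets, with 2 members and 6.39% of all at an unadjusted p under 0.05.

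In PRKO uteri Krt7 read 317, 358 and 333 with P4 at 40 h, against 301, 295 and 359 with vehicle, and 377, 403 and 349 with P4 at 4 h, against 389.9, 442 and 422 with vehicle. These groups overlapped at both times. Its effect in PRKO minus that in wild type at 40 h was 0.72 ± 0.16 (adjusted p = 0.108). Of the 8 group means, wild type with P4 at 40 h (222 ± 19.5, SD, n = 3) was the lowest, and its gap to the next, PRKO with vehicle at 40 h (318 ± 35.3), exceeded the larger SD of the pair. The other 7 means ran to 418 in PRKO with vehicle at 4 h, with no gap between neighbours beyond their SD.

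**Figure D2:**
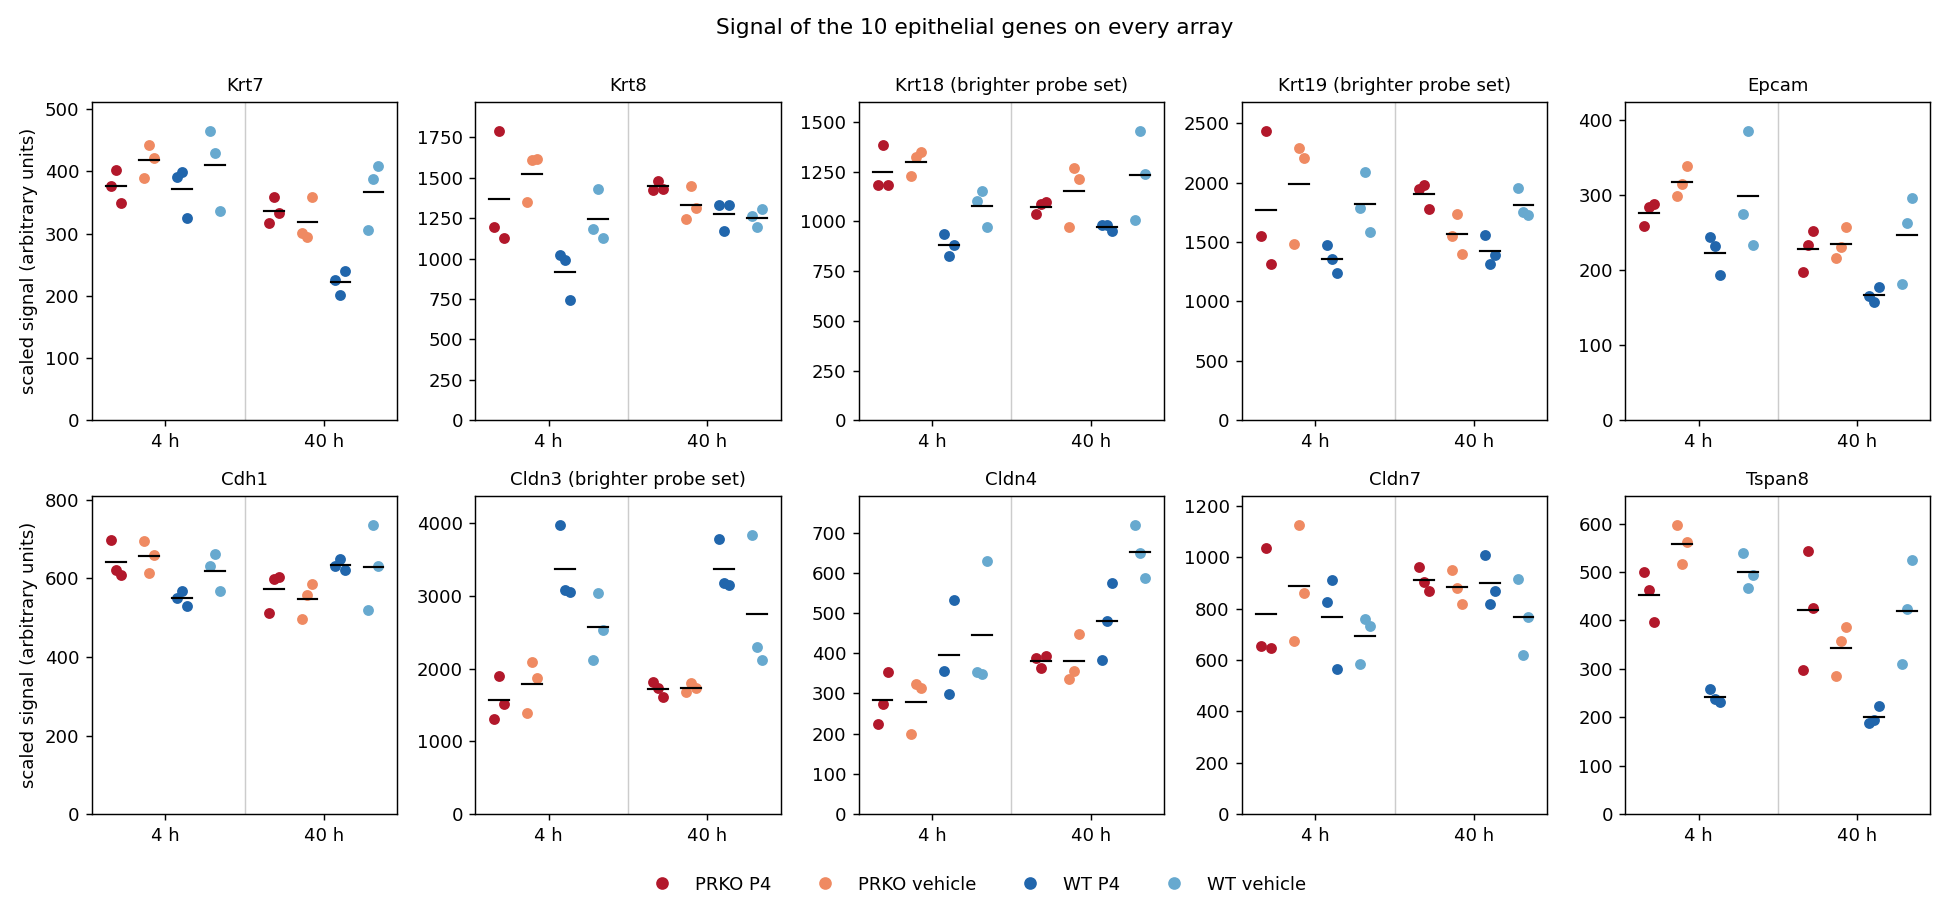
Scaled signal (y axis, linear, from 0) of the 10 genes, brighter probe set where there are 2, on each array in the 8 groups. Points are arrays and bars are group means of 3 arrays. Tspan8 and Krt7 are lowest in wild type with P4 at 40 h, and Cldn3 is lower in every PRKO array than in every wild-type array.

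Several signs of tissue makeup moved with P4 in wild type at 40 h. Of 8 measured adipose markers, 6 were lower, with a summed signal of 6107 to 10549 on the P4 arrays, against 14629 to 16946 on the vehicle arrays, and none at 0. Adipoq, the fat cell hormone adiponectin, was at −1.41 ± 0.25 (adjusted p = 0.00384). Of 12 stroma markers 4 were higher (Col3a1 0.91 ± 0.16, Col1a2 0.79, Col1a1 0.78, Hoxa11 0.66) and 4 of the 12 were below 0. The sums of the 12 were 35204 to 39593 with P4, against 25425 to 31859 with vehicle. Further probe sets of Col3a1 (0.81 and 0.90), Col1a2 (0.06) and Col1a1 (0.36) did not pass. Of 9 smooth muscle markers 0 passed and all 9 were above 0, with a median of 0.35, and their sums were 35257 to 37847 with P4, against 30435 to 32266 with vehicle. Of 9 endothelial and 9 leukocyte markers 1 each was lower (Cldn5 −0.79, Cd74 −0.54). Of 26 other epithelial genes 0 passed and 18 were below 0, with a median of −0.09, and sums of 16334 to 17525 with P4, against 19396 to 19682 with vehicle. The Gapdh ratio was 1.23 to 1.30 with P4, against 1.48 to 1.60 with vehicle. With the adipose score as a covariate the 40 h changes became −0.73 ± 0.29 for Tspan8 (adjusted p = 0.993) and −0.54 ± 0.20 for Krt7 (adjusted p = 0.982), and the means over both times −0.83 ± 0.18 (adjusted p = 0.142) and −0.32 ± 0.13 (adjusted p = 0.826), so neither gene passed. That fit passed 0 of all probe sets at 40 h, against 191 without the covariate, and 3 over both times, against 163. At 4 h 0 of the 8 adipose markers and 0 of the 12 stroma markers passed, with 7 of the 8 adipose markers below 0 and a median of −0.18. With the covariate Tspan8 at 4 h was −0.92 ± 0.17 (adjusted p = 0.0124). In wild type at 40 h the score was 9.06 to 9.74 with P4, against 10.23 to 10.50 with vehicle. There the covariate cannot be separated from P4, so the lost calls do not show the part of tissue makeup. That part was not tested further.

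The promoters of Krt7 and Tspan8 are shown because both genes fell with P4, and that of Epcam because it held the only match to the progesterone response element among the members. Each is the 250 bases before the transcription start in RefSeq, build GRCm38.p6, 5′ to 3′ on the gene's strand. Capitals mark a match to the element.
Krt7, chr15:101412153-101412402, plus strand: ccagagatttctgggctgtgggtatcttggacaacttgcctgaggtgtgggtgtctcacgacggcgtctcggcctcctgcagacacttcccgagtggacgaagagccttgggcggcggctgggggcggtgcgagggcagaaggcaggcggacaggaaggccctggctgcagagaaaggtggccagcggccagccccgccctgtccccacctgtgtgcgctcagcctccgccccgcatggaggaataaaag
Tspan8, chr10:115817034-115817283, plus strand: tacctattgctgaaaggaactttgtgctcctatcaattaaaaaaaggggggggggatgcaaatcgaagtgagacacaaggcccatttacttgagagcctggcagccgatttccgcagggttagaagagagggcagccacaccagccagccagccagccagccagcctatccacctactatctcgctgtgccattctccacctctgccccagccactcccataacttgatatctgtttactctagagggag
Epcam, chr17:87635729-87635978, plus strand: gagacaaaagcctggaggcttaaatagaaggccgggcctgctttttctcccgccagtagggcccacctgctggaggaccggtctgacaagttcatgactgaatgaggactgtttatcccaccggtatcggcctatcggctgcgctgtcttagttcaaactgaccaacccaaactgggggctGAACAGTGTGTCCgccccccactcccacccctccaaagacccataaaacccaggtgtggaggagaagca
The table held 9 promoters for 8 of the 10 genes, with 2 for Cldn7 and no entry for Krt19 or Cdh1. On either strand, the 13-letter progesterone response element consensus was in 1 of 9, against 0.387% of all 32851 promoters. In Epcam its farthest base lay 69 bases before the start. The 6-letter core TGTTCT, whose reverse complement is AGAACA and which can overlap the longer element, was in 0 of 9, against 16.1% of all promoters. A match describes these letters only, and elements outside these windows were not looked for.

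Krt8 and Krt18, the keratin pair of simple epithelia, did not pass for P4. At 4 h Krt8 read 1021, 989.6 and 745 on the wild-type P4 arrays, against 1186, 1428 and 1126 with vehicle. The P4 arrays were all lower, and the change was −0.43 ± 0.14 (adjusted p = 0.32). At 40 h it read 1331, 1169 and 1334 with P4, against 1264, 1192 and 1304 with vehicle, with overlap and a change of 0.03 ± 0.14 (adjusted p = 0.966). The 95% interval at 40 h ran from −0.26 to 0.32.

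The brighter Krt18 probe set read 936, 826 and 881 with P4 at 4 h in wild type, against 1104, 1152 and 973 with vehicle. At 40 h it read 983, 983 and 951 with P4, against 1006, 1455 and 1235 with vehicle. Within each time the P4 and vehicle arrays did not overlap. The changes were −0.28 ± 0.11 (adjusted p = 0.589) and −0.32 ± 0.11 (adjusted p = 0.199), with a mean over both times of −0.30 ± 0.08 (adjusted p = 0.07). The dimmer Krt18 probe set sat at percentile 2.21 of the mean signals, with 17.1 to 34.2 over all arrays, and within groups did not follow the brighter one (r = 0.02 over 24 arrays).

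Krt19, the type I keratin without a tail domain, had group means of 1355 ± 116 with P4 in wild type at 4 h and 1422 ± 125 at 40 h, against 1821 ± 250.4 and 1814 ± 121 with vehicle (SD, n = 3 each; brighter probe set). Every P4 array was below every vehicle array at both times. The mean change was −0.38 ± 0.12 and did not pass (adjusted p = 0.157). In PRKO with P4 it averaged 1769 ± 590.3 at 4 h and 1903 ± 106 at 40 h, against 1992 ± 442 and 1565 ± 168 with vehicle. These overlapped at 4 h, and all 3 P4 arrays were higher at 40 h (0.28 ± 0.17, adjusted p = 0.703), as for 5.88% of all probe sets. The dimmer probe set overlapped between P4 and vehicle in both genotypes at both times.

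Epcam missed the threshold in wild type by a small margin over both times. It read 244, 233 and 193 with P4 at 4 h, against 275, 386 and 234 with vehicle. At 40 h it read 166, 158 and 178 with P4, against 182, 263 and 297 with vehicle. The groups overlapped through 1 array at 4 h and were apart at 40 h. The changes were −0.35 ± 0.15 (adjusted p = 0.624) and −0.47 ± 0.15 (adjusted p = 0.134), and their mean −0.41 ± 0.10 (adjusted p = 0.0515). In PRKO at 4 h Epcam averaged 277 ± 16.1 with P4, against 318 ± 19.9 with vehicle (SD, n = 3 each). The P4 arrays there were all lower, as for 2.69% of all probe sets, and the change of −0.18 ± 0.15 did not pass. At 40 h the PRKO groups overlapped (−0.04 ± 0.15). In PRKO the mean over both times was −0.11 ± 0.10 (adjusted p = 0.946), and the PRKO minus wild-type difference 0.30 ± 0.15 (adjusted p = 0.56). Without replicate 1 of wild type with vehicle at 40 h, the lowest vehicle array, Epcam passed at 40 h (−0.65 ± 0.14, adjusted p = 0.0211) and over both times (adjusted p = 0.00613), and without replicate 3 with vehicle at 4 h it passed over both times (adjusted p = 0.0137). With all arrays kept, limma passed it over both times with an offset of 8 (adjusted p = 0.0496), quantile normalization (0.0497) and dim probe sets left out (0.0458). It also passed there with a block for replicate number (0.0125) and the Gapdh ratio as a covariate (0.0361), and at 40 h with the block (0.0406). With the adipose score as a covariate it did not pass.

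Cdh1, whose product E-cadherin joins neighbouring epithelial cells, did not pass in any comparison. Its 8 group means ran from 547 ± 44.7 to 656 ± 40.5, and no gap between neighbours in that order exceeded the larger SD. The P4 minus vehicle difference in wild type was −0.16 ± 0.10 at 4 h (adjusted p = 0.949) and 0.02 ± 0.10 at 40 h (adjusted p = 0.96). The 95% interval of its mean over both times was −0.22 to 0.08.

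Of the 3 claudins, 2 passed between genotypes, and none passed for P4. Cldn3 was lower in PRKO than in wild-type uteri under P4 at both times, Cldn3 and Cldn4 were lower over the 4 combinations of treatment and time, and Cldn7 did not pass. In vehicle arrays alone, the comparison set by the design, 0 of 13 members passed at 4 h (0.185% of all probe sets) and 0 of 13 at 40 h (0.0644% of all). An unadjusted p under 0.05 was found for 4 of 13 members at 4 h and 3 at 40 h, where 5.02% and 3.08% of all probe sets had one. All 3 PRKO vehicle arrays lay below all 3 wild-type vehicle arrays for both Cldn3 probe sets and for Cldn4, at both times, which is 3 of 13 where 1.98% of all probe sets did so at 4 h and 6.33% at 40 h. The brighter Krt18 probe set was all higher in PRKO at 4 h, as were 4.07% of all. Averaged over the 4 combinations, a comparison added after the values were seen, 5 of 13 members passed, 3 lower and 2 higher, against 2.73% of all probe sets.

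Cldn3 encodes a sealing claudin. Its brighter probe set read 1308 to 2094 on the 12 PRKO arrays, with a median of 1733, and 2120 to 3979 on the 12 wild-type arrays, with a median of 3067. Every PRKO array was below every wild-type array, which held for 1 of 13 member probe sets and 0.0644% of all. The difference was −0.79 ± 0.09, or 1.73-fold lower in PRKO (adjusted p = 1.08e-05). The dimmer probe set read 61.7 to 124 in PRKO, against 109 to 311 in wild type, with 2 arrays of each genotype in the overlap. It differed by −0.84 ± 0.10 (adjusted p = 9.89e-06), and both probe sets moved together within groups (r = 0.70 over 24 arrays). In the order of the brighter probe set's 8 group means, the 4 PRKO groups (1572 to 1784) came below the 4 wild-type groups (2567 to 3371), and the only gap beyond the larger SD was the one between the genotypes.

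Under P4 the Cldn3 gap could be read within each time. At 4 h the brighter probe set read 1308, 1901 and 1508 on the PRKO P4 arrays, against 3979, 3086 and 3048 on the wild-type P4 arrays. At 40 h it read 1815, 1734 and 1612 in PRKO, against 3779, 3179.8 and 3153 in wild type. The PRKO arrays were all lower, as for 5.06% of all probe sets at 4 h and 23.6% at 40 h. The differences were −1.09 ± 0.19 (adjusted p = 0.00203) and −0.95 ± 0.19 (adjusted p = 0.00804). In vehicle the array values were 1392, 2094 and 1865 in PRKO at 4 h, against 2125, 3044 and 2531 in wild type, and 1676, 1797 and 1731 in PRKO at 40 h, against 3842, 2297 and 2119.6 in wild type. The genotypes did not overlap here either, and the differences were −0.52 ± 0.19 (adjusted p = 0.722) and −0.61 ± 0.19 (adjusted p = 0.835). The P4 minus vehicle difference of Cldn3 in wild type was 0.39 ± 0.19 at 4 h (adjusted p = 0.796) and 0.34 ± 0.19 at 40 h (adjusted p = 0.527), and the PRKO minus wild-type difference in P4 effect, −0.46 ± 0.19 over both times, did not pass (adjusted p = 0.448). Cldn3 passed as higher with P4 in wild type in 3 alternative settings. These were the dimmer probe set at 40 h on arrays of that time only (0.32 ± 0.08, adjusted p = 0.042), the dimmer over both times with the Gapdh ratio as a covariate (0.45 ± 0.10, adjusted p = 0.0216), and the brighter over both times without replicate 1 of wild type with vehicle at 40 h (0.50 ± 0.11, adjusted p = 0.0285).

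Cldn4, a claudin that is a receptor for Clostridium perfringens enterotoxin as Cldn3 is, followed the same direction with more spread. At 40 h it read 337, 357 and 447 in PRKO with vehicle, against 719.5, 649 and 587 in wild type with vehicle. With P4 at 40 h it read 389, 363 and 393 in PRKO, against 384, 480.2 and 575 in wild type. The genotypes were apart in vehicle and overlapped with P4. At 4 h PRKO arrays read 199, 323 and 314 with vehicle, against 355, 349 and 630.2 in wild type, and 225, 274 and 353 with P4, against 355, 298 and 533 in wild type. Over the 4 combinations Cldn4 was lower in PRKO, with a log2 difference of −0.51 ± 0.11 (adjusted p = 0.008), with 198.5 to 447 in PRKO and 298 to 719.5 in wild type. The Cldn7 difference was 0.14 ± 0.10 (adjusted p = 0.608), with a 95% interval of −0.06 to 0.34.

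Cldn3 and Cldn4 lie next to each other on chromosome 5, on opposite strands, and Pgr lies on chromosome 9. Their promoters are shown because both genes were lower in PRKO, with neither motif in either window.
Cldn4, chr5:134946935-134947184, minus strand: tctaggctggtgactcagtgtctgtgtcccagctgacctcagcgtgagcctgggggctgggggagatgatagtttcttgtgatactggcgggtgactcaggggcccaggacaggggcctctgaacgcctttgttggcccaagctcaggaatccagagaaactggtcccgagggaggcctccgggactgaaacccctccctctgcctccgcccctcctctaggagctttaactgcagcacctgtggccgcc
Cldn3, chr5:134985964-134986213, plus strand: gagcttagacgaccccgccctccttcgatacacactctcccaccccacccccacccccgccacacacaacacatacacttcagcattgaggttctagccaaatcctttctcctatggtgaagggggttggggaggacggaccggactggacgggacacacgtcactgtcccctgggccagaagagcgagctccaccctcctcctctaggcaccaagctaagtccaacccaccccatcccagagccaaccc
Of the 22 coding genes in a window reaching 10 coding genes to each side of the pair, 13 were measured. The 11 others ranged from −0.07 (Eif4h) to 0.11 (Baz1b) between PRKO and wild type, and 0 of them passed, so in this window only Cldn3 and Cldn4 passed.

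**Figure D3:**
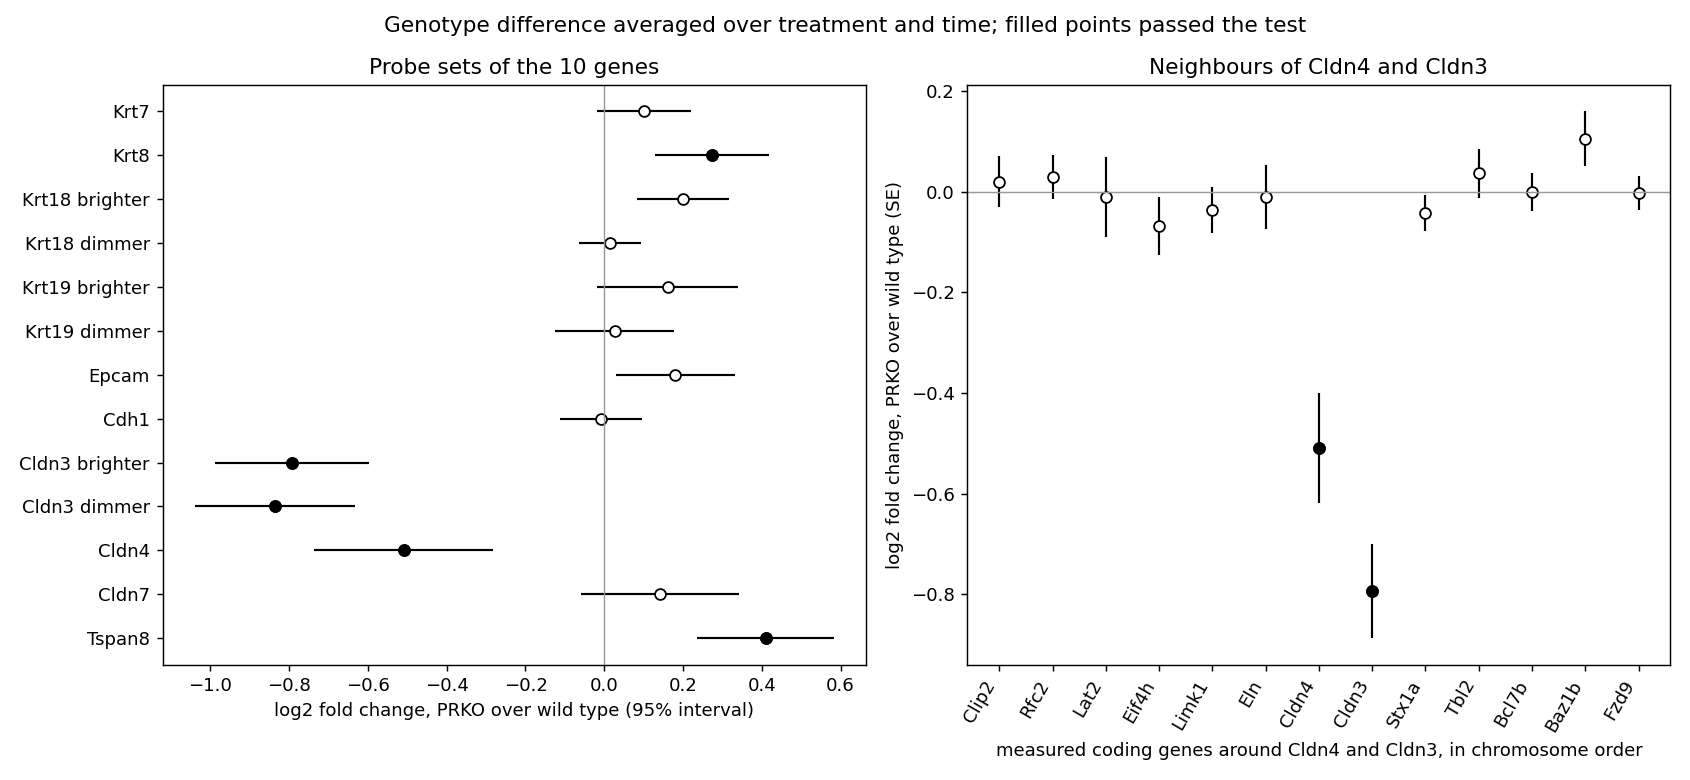
Log2 fold change of PRKO over wild type averaged over treatment and time, for the 13 member probe sets (left, x axis, with 95% intervals) and for the measured coding genes around Cldn4 and Cldn3 in chromosome order (right, y axis, with SE). Filled points passed the limma test: both Cldn3 probe sets and Cldn4 lie below 0, Krt8 and Tspan8 above it, and the 11 neighbours lie between −0.07 and 0.11.

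Tspan8 and Krt8 were higher in PRKO over the 4 combinations. Tspan8 was at 0.41 ± 0.08 (adjusted p = 0.0053), and its vehicle arrays overlapped between the genotypes at both times (0.15 ± 0.17 at 4 h and −0.25 ± 0.17 at 40 h, adjusted p = 1 each). Krt8 was at 0.27 ± 0.07 (adjusted p = 0.0341). Its lowest, median and highest signals were 1124, 1429 and 1790.2 in PRKO, against 745, 1189 and 1428 in wild type, with wide overlap. The Krt8 call was lost in 13 of 34 alternative settings, with adjusted p up to 0.224. With the adipose score as a covariate, Cldn3 and Cldn4 passed over the 4 combinations and Krt8 (0.24 ± 0.08, adjusted p = 0.224) and Tspan8 (0.37 ± 0.10, adjusted p = 0.0529) did not, in a fit that passed 210 probe sets of all against 339 without it.

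Within P4 arrays, 4 of 13 members differed between genotypes at 4 h (1.22% of all probe sets) and 4 of 13 at 40 h (2.59% of all). The 2 lower ones at each time were the Cldn3 probe sets, the dimmer at −1.24 ± 0.20 (adjusted p = 0.000773) and −0.83 ± 0.20 (adjusted p = 0.0257). The 2 higher ones at 4 h were Tspan8 (0.82 ± 0.17, adjusted p = 0.0111) and the brighter Krt18 probe set (0.49 ± 0.11, adjusted p = 0.029). Krt18 read 1183, 1382 and 1181 in PRKO, against the 936, 826 and 881 of wild type. The PRKO arrays were all higher, as for 5.28% of all probe sets. The 2 higher ones at 40 h were Tspan8 (0.92 ± 0.17, adjusted p = 0.0037) and Krt7 (0.54 ± 0.12, adjusted p = 0.0158). Among these, Krt18 lost its call in 9 of 18 settings and the dimmer Cldn3 probe set at 40 h in 7 of 16. With the adipose score as a covariate 4 members passed at 4 h and 0 at 40 h, where adjusted p was 0.264 to 0.767 and 13 probe sets of all passed, against 322 without it. Krt7 lost its call without replicate 2 of PRKO or of wild type with P4 at 40 h (adjusted p = 0.109 and 0.0939), and Tspan8 at 4 h without replicate 1 of PRKO or replicate 2 of wild type with P4 (adjusted p = 0.0769 and 0.0549).

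Other cell type markers also differed by genotype. Over the 4 combinations 0 of 8 adipose markers passed, 1 of 12 stroma markers was higher (Thy1 0.46) and 1 lower (Hoxa11 −0.28), and 2 of 9 smooth muscle markers were lower (Tagln −0.18, Myh11 −0.17). Of 9 leukocyte markers 1 was lower (Cd14 −0.39). Of 5 mesothelium markers, which matter because that layer also makes keratins, 1 was higher (Upk3b 0.20). Under P4 at 40 h, 4 of 8 adipose markers were higher in PRKO (Adipoq 1.27 ± 0.25, adjusted p = 0.0089) and 2 of 12 stroma and 1 of 9 smooth muscle markers were lower. Of the leukocyte markers 1 was then higher (Ptprc 0.41) and 2 lower (Cd14 −0.54, Csf1r −0.45). The 2 further Ptprc probe sets (−0.10 and 0.07) and the 1 further Csf1r probe set (−0.48) did not pass. The adipose score under P4 at 40 h was 10.09 to 10.3 in PRKO, against 9.06 to 9.74 in wild type. There the covariate cannot be separated from genotype. The part of the markers other than adipose in the member differences was not tested.

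Of 13 other keratins measured, 0 passed in any comparison given here. Of 13 other claudins and tight junction genes, Cldn5, the endothelial claudin, was lower with P4 in wild type at 40 h (−0.79 ± 0.18, adjusted p = 0.024), and 0 passed between genotypes. Of 15 other tetraspanins, Tspan4 was lower with P4 in wild type at 40 h (−0.45 ± 0.11, adjusted p = 0.0399). Of 20 other cadherin, adherens junction and desmosome genes, Perp (−0.59 ± 0.14, adjusted p = 0.0293), a desmosomal membrane protein, and Dsp (−0.56 ± 0.14, adjusted p = 0.0403), desmoplakin, were lower with P4 over both times in wild type. A further Dsp probe set did not pass (0.08).

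Between genotypes, 4 of those 20 genes were higher in PRKO and 1 lower over the 4 combinations. Cdh16, the kidney-type cadherin first known from renal epithelium, was higher in PRKO by 1.06 ± 0.07 (adjusted p = 1.52e-08), and it passed in vehicle at 4 h (1.32 ± 0.15) and at 40 h (0.84 ± 0.15). The others higher were Dsp (0.45), Dsc2 (0.44), a desmosomal cadherin, and Cdh2 (0.31), N-cadherin. Further probe sets of Dsp (−0.07) and Dsc2 (0.18) did not pass. Of 26 other epithelial genes, 3 were lower with P4 in wild type over both times: Wfdc2 (−0.58 ± 0.14), Cd24a (−0.31 ± 0.08) and Elf3 (−0.28 ± 0.06), an epithelial transcription factor. Between genotypes 3 were higher in PRKO (Prom1 0.32, Cd24a 0.26, Elf3 0.21) and 1 lower (Sox17 −0.43). The median of that list was −0.02 for P4 in wild type over both times and 0.09 for PRKO against wild type, beside medians over all genes of 0.00 and −0.01.

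The members did not vary as 1 block from array to array. Over 24 arrays, after group means were removed, the 45 pairs of the 10 genes had a median Pearson r of 0.18, with 27 above 0 and 15 above 0.5. The closest pair was Krt8 and Krt19 (0.87), and Cdh1 and Cldn3 were the most opposed (−0.53). In sets picked after the values were seen, Krt8, Krt19, Cldn3 and Cldn7 had a median r of 0.74 among themselves, and Krt7, Krt18, Epcam, Cdh1 and Tspan8 one of 0.59. By time, the medians within the first set were 0.78 at 4 h and 0.60 at 40 h, and within the second 0.41 at 4 h, with pairs down to −0.26, and 0.73 at 40 h. Between those sets the median was −0.03, with 0.40 on the 12 arrays of 4 h and −0.50 on the 12 of 40 h. Within groups the Gapdh ratio correlated with Krt8 at 0.59, Epcam at 0.51, Cldn7 at 0.47 and Cldn4 at −0.49. These values include the arrays of high Gapdh ratio (3.25 and 3.67) and are not given without them. The part of RNA quality in the co-variation was not tested.

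**Figure D4:**
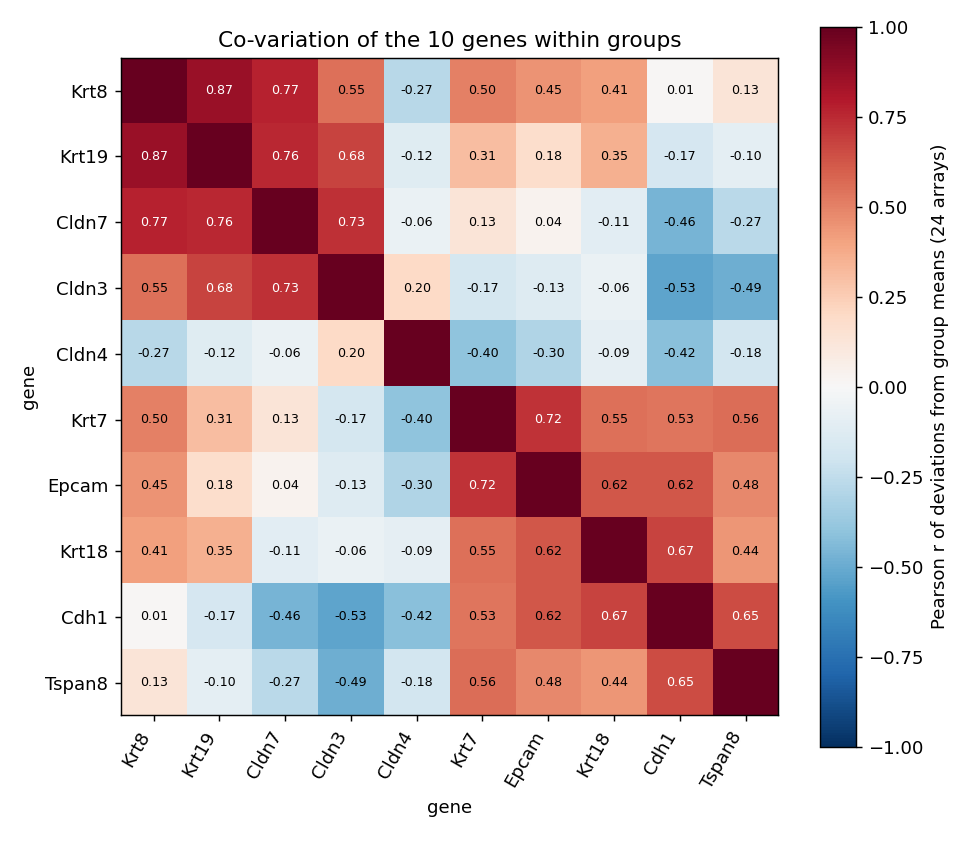
Pearson correlation of the deviations from group means over 24 arrays for each pair of the 10 genes (both axes), from −1 (blue) to 1 (red). Krt8, Krt19, Cldn7 and Cldn3 form 1 red block and Krt7, Epcam, Krt18, Cdh1 and Tspan8 another, and Cdh1 with Cldn3 is at −0.53.

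Among genes outside the set, those most like Krt7 in signal over the 24 arrays were Six4 (Pearson r 0.91), Ptbp3 (0.89), Dhrs7 (0.88), Spred2 (0.88) and Crybg1 (0.88). Those most like Tspan8 were P2rx4 (0.89), Atp11a (0.87), B3gnt2 (0.87), Npr3 (0.84) and Myb (0.83). Of these 10 genes, Crybg1 (−0.78), P2rx4 (−0.47) and Myb (−0.56) passed with P4 in wild type at 40 h (limma, adjusted p = 0.00384, 0.0318 and 0.0399), where 1.54% of all probe sets passed. The 10 were picked for likeness to Krt7 or Tspan8 on these same arrays, so these falls are no separate result. These correlations describe the 24 arrays, which share groups, and carry no test.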

How the data were processed

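Whole-uterus RNA was hybridised to Affymetrix arrays. The deposited table holds MAS5 signal intensity on a linear scale per probe set, per the submitters' processing notes and the values; no source used here states an earlier scaling. Of 12488 probe sets 66 controls were left out. Each array was scaled to a trimmed mean of 500 (2% trimmed from each end), 32 was added and log2 taken. The 8 group means of all 24 arrays were fitted with limma 3.58.1 in R 4.3.3 (eBayes with trend), with Benjamini-Hochberg adjustment over 12422 probe sets and a threshold of 0.05, and the code was tested on simulated data. Genes were assigned by the platform annotation, and their names are the RefSeq symbols of the same gene ID. This match was found for 10817 of the 10833 probe sets naming 1 gene, and the others kept the platform's name.

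The members and lists were chosen with earlier results of these data known. All member probe sets are named, with array values for those that passed in any comparison and for others close to it. Of each other list up to 4 passing genes per comparison with the largest change are named, by the brightest probe set of a gene. The genotype comparisons under P4 and all means over times or strata were added after the values were seen. Replicate numbers, tested as a replicate block, had same-numbered arrays correlated above 0.1 in all 3 pairs only for P4 against vehicle in wild type at 4 h (r = 0.114, 0.516 and 0.35), and in 2 of 3 pairs elsewhere, with 0.116, 0.142 and 0.0686 in wild type at 40 h. In wild type at 4 h the block gave 1 member (128 of all probe sets), as did the fit without it (88 of all). In wild type at 40 h the block gave 3 members (386 of all), against 2 without it (191 of all). Alternatives were other offsets, no further scaling, quantile normalization, a filter on dim probe sets, fewer arrays in the fit, leaving out each array, the block and covariates.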

Additional observations from a re-analysis of the deposited data

Results flagged for a closer look

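The effect of P4 on Tspan8 differed between the genotypes. Over both times it was −0.02 ± 0.12 in PRKO and −0.94 ± 0.12 in wild type, a difference of 0.92 ± 0.17 (limma, adjusted p = 0.0207). The difference kept its call in 33 of 34 alternative settings, with values of 0.72 to 1.03 over all 34. It lost the call with the adipose score as a covariate (0.82 ± 0.21, adjusted p = 0.444), a fit that passed 2 probe sets of all against 28. With 3 arrays a group, no test for a single outlying array was run.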

How the results depend on the processing

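Of 3946 member values recomputed under the alternatives, 3783 stayed called in the same direction or stayed uncalled within 1 SE, 50 lost the call, 36 gained it and 77 uncalled ones moved by over 1 SE. None that was called changed sign, and 154 uncalled ones did. Counts of members called moved by over 1.5 times in 16 of the 151 comparisons and settings that do not leave out a single array. For P4 in wild type the count was 0 at 4 h without the arrays of high Gapdh ratio (29 of all probe sets, against 88), and with the adipose covariate 0 at 40 h (0 of all, against 191) and 0 over both times (3, against 163). Over both times it was 4 with the replicate block (346 of all), 4 with the Gapdh covariate (358) and 1 on the arrays of the comparison only (73). The adipose covariate also gave 0 for the difference of P4 effects over both times, 0 for genotype under P4 at 40 h and 3 over the 4 combinations. For the difference of P4 effects at 40 h it was 1 with an offset of 8 (Tspan8, adjusted p = 0.0482), 1 with quantile normalization (adjusted p = 0.0411) and 2 with the replicate block (Tspan8 0.00124, Krt7 0.0265). For genotype in vehicle it was 1 at 4 h with the replicate block and 1 at 40 h on arrays of the same time only, each the dimmer Cldn3 probe set. For genotype under P4 at 4 h it was 2 on the arrays of the comparison only and 2 without the arrays of high Gapdh ratio. Leaving out each array in turn gave 2 to 4 members for wild type at 40 h, 1 to 5 over both times, 0 to 2 for the difference at 40 h, and for genotype under P4 2 to 4 at 4 h and 2 to 3 at 40 h. The 5 members over the 4 combinations were 4 to 6. Without replicate 1 of wild type with vehicle at 40 h, Epcam and the brighter Krt18 probe set also passed at 40 h; Krt7 over both times lost its call without replicate 1 of wild type with vehicle at 4 h, replicates 2 or 3 with vehicle at 40 h or replicate 2 with P4 at 40 h (adjusted p = 0.0502 to 0.0609). The cause of these shifts was not tested. Outside P4 against vehicle in wild type at 4 h, no comparison had every same-numbered pair of arrays correlated above 0.1. For P4 against vehicle at 40 h, in wild type and in PRKO, each same-numbered pair still had a higher r than pairs of other numbers. Whether replicate numbers pair the arrays was not settled. Over the 4 combinations the Cldn3 and Cldn4 genotype calls held in every setting run and that of Tspan8 in 33 of 34, the exception being the adipose covariate. Dim probe sets, such as the dimmer of Krt18, limit what can be detected.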
